A study of Homo sapiens with 6 samples.

Results

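The UBE2 genes encode ubiquitin-conjugating enzymes (E2s), and their transcripts were followed here in CHL-1 melanoma cells after knockdown of CREM. Members were all genes whose symbol is UBE2 followed by 1 letter and at most 1 digit, with 1 gene set aside, which left 31 of the 32 symbols of that form among 21625 genes in the deposited tables. The rule reads the symbol alone. CHL-1 is an established melanoma line that carries the EWSR1::CREM fusion, in which part of the RNA-binding protein gene EWSR1 is joined to the DNA-binding part of the cAMP-responsive transcription factor gene CREM. The CREM siRNA group (n = 3 libraries) received 50 nM of an siRNA pool directed at the DNA-binding region, so that the fusion and wild type CREM were targeted together, and the Control siRNA group (n = 3 libraries) received a mix of non-targeting siRNAs at the same dose. The CHL-1 cells were kept in DMEM with fetal bovine serum. RNA was collected after 48 h in both groups, and polyadenylated RNA was sequenced. All values come from this 1 line at 1 time point. The libraries are described as triplicate experiments, and the deposited headers number them by experiment. Neither says whether these were separate cultures. The p-values therefore speak only of the variation among these libraries, part of which may be technical.

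Ubiquitin is activated by an E1 enzyme, handed to an E2, and placed on a target protein with the help of an E3 ligase. The E2 takes part in setting which chain is built, and several E2s carry other modifiers of the same fold, such as SUMO, NEDD8 and ISG15. In dividing cells a pair of E2s serves the anaphase-promoting complex, the ligase that marks cyclins and securin for destruction at mitosis.

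CREM was at 2.40, 2.74 and 2.52 RPKM (reads scaled to gene length and to library size) in the CREM siRNA libraries, against 43.4, 46.4 and 46.5 RPKM in the Control siRNA libraries. The knockdown was thus present in each library labelled as such (log2 fold change -3.71 with standard error 0.0567, limma adjusted p = 3.43e-12). Libraries held 17221794 to 29793837 reads. The melanoma label was checked against melanocytic markers, of which SOX10 (483 RPKM with CREM siRNA and 303 RPKM with Control siRNA), S100B (211 and 76.7 RPKM in the same order) and the pigment gene DCT (238 and 24.0 RPKM) were abundant and higher with CREM siRNA. The pigment genes MLANA, TYR and TYRP1 were under 1 RPKM in every library. MLANA and TYR had reads only in replicate 3 of each group, and PMEL was at 8.35 RPKM in CREM siRNA replicate 3 and 1.94 RPKM in Control siRNA replicate 3, against 0.372 to 0.814 RPKM in the other libraries. Of the markers of other cell types, the epithelial KRT19, the T cell CD3E and the endothelial PECAM1 were at 0 in all 6 libraries, while ESRP1, an epithelial splicing factor, was higher (12.1 RPKM with CREM siRNA and 2.96 RPKM with Control siRNA) and KDR, an endothelial receptor, was lower (0.129 and 4.09 RPKM in the same order). The epithelial list summed to 47.2 to 54.5 CPM with CREM siRNA and 18.2 to 18.9 CPM with Control siRNA, and the endothelial list to 0.946 to 1.15 CPM and 23.3 to 27.8 CPM. The part of these genes in the results below was not tested. The leukocyte list summed to 2.05 to 3.18 CPM (reads scaled to library size alone) in CREM siRNA libraries and 10.3 to 11.7 CPM in Control siRNA libraries. PTPRC, of this list, was at 0.114 RPKM with CREM siRNA and 1.28 RPKM with Control siRNA. Of 4 tested markers of undifferentiated melanoma, 1 was higher, 2 were lower and 1 had no call, beside 36.6% and 36.7% of all genes.

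Of the 31 UBE2 genes, 30 reached a mean of 1 RPKM and were tested with limma on log2(RPKM + 1), with Benjamini-Hochberg adjustment over 12407 genes and a threshold of 0.05. After the knockdown 10 of them had higher and 12 had lower levels, and 8 did not pass. The share called, 73.3%, stood beside 73.4% of all tested genes, with 36.6% of all genes higher and 36.7% lower, so the number of changed E2s was near the background of this knockdown. The median log2 fold change of the 30 genes was -0.054 against 0.0037 over all tested genes, and their median absolute value was 0.24 against 0.35. Groups did not overlap in 24 of the 30 genes, beside 76.2% of all genes. A call together with an absolute log2 fold change of at least 0.5 was reached by 6 members (UBE2C, UBE2S, UBE2D4, UBE2E1, UBE2Z and UBE2H), beside 35.9% of all genes. Large changes were therefore few, and they ran in both directions. RNA was taken from whole cultures, so fewer cells of a kind and less RNA per cell cannot be told apart here.

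**Figure D1:**
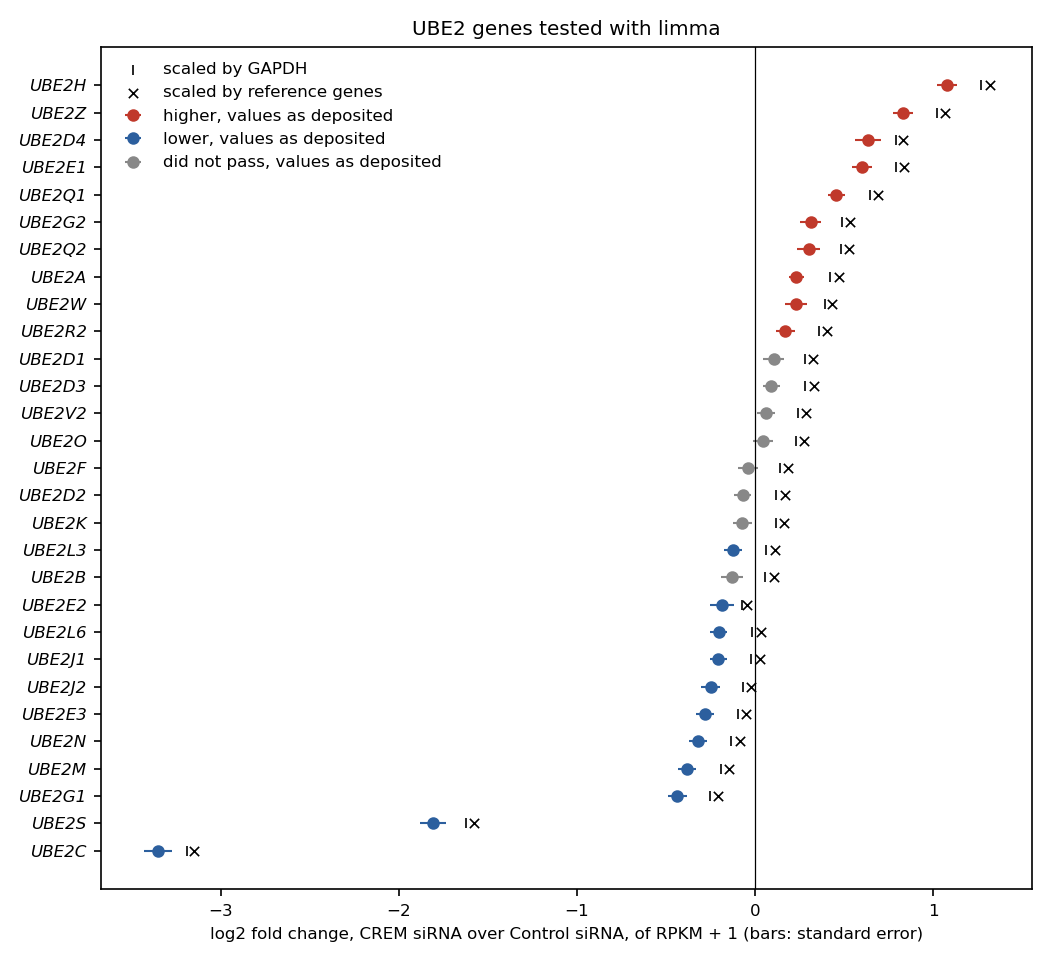
Log2 fold change of RPKM + 1, CREM siRNA over Control siRNA (horizontal axis), for UBE2 genes that were tested (rows). Coloured points with standard error bars are the values as deposited, and the small marks show the same fit after scaling the libraries by GAPDH or by reference genes. UBE2C (-3.36) and UBE2S (-1.81) stand far to the left and UBE2H (1.08) to the right, while most of the other genes lie within 0.5 of zero.

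UBE2C and UBE2S, the E2s of the anaphase-promoting complex, had the lowest fold changes of the group. UBE2C starts the ubiquitin chains that this ligase builds, and it spans chr20:45812576-45816957 on the plus strand (GRCh38, as all coordinates here). It was at 2.23, 2.47 and 2.75 RPKM in CREM siRNA libraries, against 32.0, 33.3 and 38.7 RPKM in Control siRNA libraries. Every CREM siRNA library lay far below every Control siRNA library, at 7.16% of the Control mean. In limma this gave a log2 fold change of -3.36 with standard error 0.0795 and adjusted p = 4.33e-11, the 45th lowest of 12407 genes. The values rest on 76 to 86 reads per CREM siRNA library and on 698 to 1157 reads per Control siRNA library.

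UBE2S extends the chains that UBE2C has begun, and it lies at chr19:55399745-55407777 on the minus strand. It was at 12.8, 10.8 and 10.5 RPKM with CREM siRNA, against 41.8, 40.3 and 44.6 RPKM with Control siRNA. The groups were again fully apart, with the knockdown libraries at 26.9% of the Control mean (log2 fold change -1.81 with standard error 0.0718, limma adjusted p = 2.20e-09). Among the members UBE2C was in 29th place by mean level with CREM siRNA and in 7th place with Control siRNA, and UBE2S was in 24th and in 4th place. The decline was not equal. The ratio of UBE2S to UBE2C within a library was 5.74, 4.37 and 3.83 with CREM siRNA, and 1.31, 1.21 and 1.15 with Control siRNA, so that in Control siRNA libraries the pair was present at similar RPKM and in CREM siRNA libraries UBE2S exceeded UBE2C several times over. The annotation names 4 pseudogenes of UBE2C and 2 of UBE2S, and the sources used here do not say how reads shared with such copies were counted.

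The partner list of these E2s, the subunits, activators and inhibitor of the anaphase-promoting complex, held 17 tested genes, of which 3 were higher and 10 lower and 4 missed the threshold, beside 36.6% and 36.7% of all genes. Its median log2 fold change was -0.28. CDC20, the activator used in mitosis, fell by 3.41 on the log2 scale (6.17 RPKM with CREM siRNA and 75.0 RPKM with Control siRNA), and FBXO5, an inhibitor of the complex that accumulates before mitosis, fell by 1.41 (2.40 and 8.02 RPKM in the same order). The 14 core subunits moved much less, with 7 lower, 3 higher and 4 without a call: CDC23, ANAPC1 and ANAPC11 were the lowest of them at -0.53, -0.49 and -0.47, and ANAPC16, ANAPC2 and ANAPC13 were higher at 0.33, 0.29 and 0.23. All 15 proliferation markers fell beside UBE2C and UBE2S, with a median log2 fold change of -2.89, and summed to 274 to 293 CPM in CREM siRNA libraries and 2507 to 2525 CPM in Control siRNA libraries. MKI67 was among them at -3.09. CDC20 belongs to both lists. The part of these markers in the fall of UBE2C and UBE2S was not tested.

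The RefSeq promoter window of UBE2S (GRCh38.p14, chr19:55407739-55408038, minus strand) is shown because it was the only member window with a full cAMP response element, the palindrome TGACGTCA to which CREM and CREB proteins bind. The window runs from upstream of the annotated start to shortly after it, 5′ to 3′, and capitals mark that element and a CCAAT box on the opposite strand.
UBE2S promoter: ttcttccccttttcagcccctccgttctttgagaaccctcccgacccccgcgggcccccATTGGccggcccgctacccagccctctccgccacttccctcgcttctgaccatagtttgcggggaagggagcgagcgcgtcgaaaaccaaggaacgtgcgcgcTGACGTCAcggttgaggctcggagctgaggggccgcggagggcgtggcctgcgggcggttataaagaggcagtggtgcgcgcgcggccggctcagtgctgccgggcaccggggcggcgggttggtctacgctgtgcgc
The element began at position -88 from the start and the CCAAT box at position -191. No promoter of UBE2C was examined.

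UBE2H, UBE2Z, UBE2E1 and UBE2D4 had the largest increases. UBE2H is the E2 of the CTLH complex, a multi-subunit ligase related to the yeast GID complex that removes enzymes of sugar synthesis, and it spans chr7:129830732-129952949 on the minus strand. It was at 68.7, 60.9 and 63.3 RPKM in CREM siRNA libraries, against 31.4, 29.5 and 28.7 RPKM in Control siRNA libraries. The lowest CREM siRNA library was well above the highest Control siRNA library, and the mean was 2.15-fold higher (log2 fold change 1.08 with standard error 0.0567, limma adjusted p = 2.14e-08). UBE2H had the highest mean RPKM of all 31 members with CREM siRNA and the 9th highest with Control siRNA. Its share of the summed member RPKM was 9.45% ± 0.512 (SD, n = 3) in CREM siRNA libraries and 4.31% ± 0.291 (SD, n = 3) in Control siRNA libraries.

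UBE2Z (chr17:48908369-48929056, plus strand) accepts ubiquitin and the ubiquitin-like protein FAT10 from UBA6, and from no other E1. It was at 48.3, 46.8 and 44.8 RPKM with CREM siRNA, against 26.7, 26.8 and 23.8 RPKM with Control siRNA. The groups did not overlap (log2 fold change 0.83 with standard error 0.0564, limma adjusted p = 1.76e-07). UBA6, the E1 that loads UBE2Z, was by contrast lower, at 9.70 RPKM with CREM siRNA and 15.7 RPKM with Control siRNA (log2 fold change -0.65, adjusted p = 3.97e-07 from limma).

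UBE2E1 (chr3:23805903-23891316, plus strand), an E2 with an extended N-terminus, was at 38.8, 41.1 and 41.6 RPKM with CREM siRNA, against 24.5, 26.5 and 28.2 RPKM with Control siRNA. Each CREM siRNA library was above each Control siRNA library (log2 fold change 0.60 with standard error 0.0577, limma adjusted p = 3.19e-06). UBE2D4 (chr7:43926438-43956136, plus strand), the rarest of the UBE2D enzymes, was at 5.61, 5.21 and 5.52 RPKM with CREM siRNA, against 3.04, 3.55 and 2.90 RPKM with Control siRNA. Here too the groups were apart (log2 fold change 0.63 with standard error 0.0718, limma adjusted p = 1.24e-05). The gene shares 15.5% of its exon bases with POLR2J4 on the other strand, which was at 3.85 RPKM with CREM siRNA and 3.72 RPKM with Control siRNA.

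**Figure D2:**
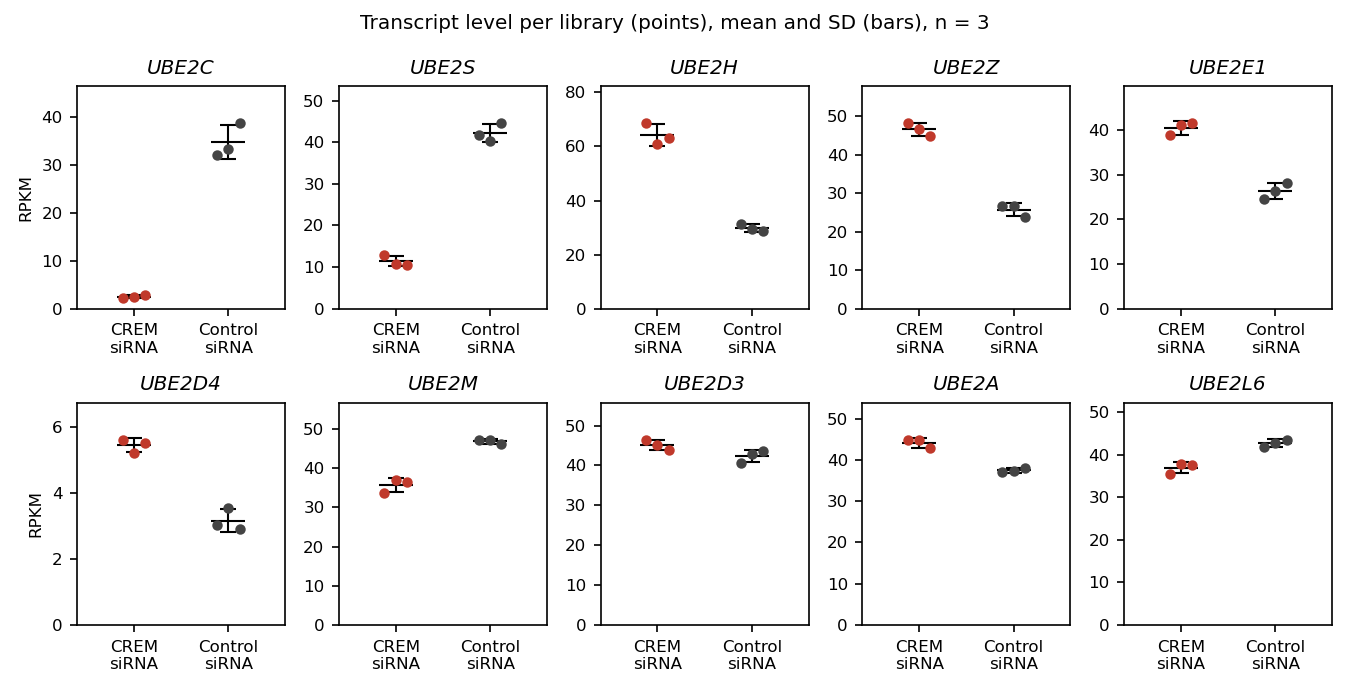
RPKM (vertical axes, each from 0) of the 6 UBE2 genes with the largest changes and of UBE2M, UBE2D3, UBE2A and UBE2L6, which with UBE2H have the highest mean levels, in CREM siRNA and Control siRNA libraries. Points are libraries, and bars give the mean and SD (n = 3). UBE2C lies at 2.23 to 2.75 RPKM with CREM siRNA and at 32.0 to 38.7 RPKM with Control siRNA, and UBE2H at 60.9 to 68.7 and 28.7 to 31.4 RPKM in the same order.

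The promoter windows of UBE2Z (chr17:48908157-48908456, plus strand) and UBE2D4 (chr7:43926186-43926485, plus strand) are given for comparison with that of UBE2S, since each has a single RefSeq window and both genes were higher with CREM siRNA. Capitals mark the same elements.
UBE2Z promoter: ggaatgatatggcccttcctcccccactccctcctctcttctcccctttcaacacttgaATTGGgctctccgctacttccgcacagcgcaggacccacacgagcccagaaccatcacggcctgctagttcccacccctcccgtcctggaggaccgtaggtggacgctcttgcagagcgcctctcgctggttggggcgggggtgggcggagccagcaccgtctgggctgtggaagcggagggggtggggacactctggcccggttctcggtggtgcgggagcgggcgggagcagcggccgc
UBE2D4 promoter: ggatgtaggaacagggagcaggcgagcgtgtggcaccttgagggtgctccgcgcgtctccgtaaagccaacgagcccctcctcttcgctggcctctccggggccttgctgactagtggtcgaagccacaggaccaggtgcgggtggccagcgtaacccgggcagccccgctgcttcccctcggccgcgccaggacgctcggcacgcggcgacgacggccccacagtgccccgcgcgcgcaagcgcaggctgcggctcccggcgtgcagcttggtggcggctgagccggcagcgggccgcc
UBE2Z has a CCAAT box on the opposite strand at position -191, and neither window holds TGACG, the half-site of the cAMP response element, on either strand. UBE2D4 has none of the marked elements.

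Promoter windows of 300 bases were at hand for 24 of the 31 members, in 36 windows, since some genes have more than 1 start. UBE2B, UBE2C, UBE2H, UBE2Q1, UBE2V2 and UBE2W were among the members without a window. Motifs were searched on both strands, and a full element also contains the half-site. The full element TGACGTCA was in 1 of 36 member windows (2.78%) and in 1.85% of 35116 windows of all genes. The half-site TGACG was in 17 member windows (47.2%), from 12 genes, against 24.6% of all windows. Windows of 1 gene can overlap: those of UBE2E2 from 23202848 and from 23202852 hold the same half-site. UBE2D3 and UBE2V1 also hold it in more than 1 window, and no share per gene was computed over all genes. Of those genes, UBE2S, UBE2M, UBE2N, UBE2E3, UBE2J1, UBE2L3 and UBE2E2 were lower with CREM siRNA, UBE2R2 was higher, UBE2D2, UBE2D3 and UBE2O did not pass, and UBE2V1 was not tested. Of the 12 members whose windows lack the half-site, 3 were lower and 6 higher, beside 36.7% and 36.6% of all genes. With GAPDH scaling only 1 of the 11 tested genes with the half-site, UBE2S, was called lower and 3 were higher. Of the 12 without it, 1 was lower and 7 were higher, beside 2976 lower and 5788 higher of all 12407 genes. With reference genes 2 with the half-site were lower and 4 higher, and 1 without it was lower and 9 higher. Over all genes these were 3010 and 6684. Most lower calls among genes with the half-site thus depended on the scaling, while UBE2S was called lower in each setting. The part of the half-site was not tested. The GC box GGGCGG was in 77.8% of member windows and in 45.0% of all windows, and the half-site TGACG itself contains CG. The elements linked to cell cycle genes were rare: the CHR (TTTGAA or TTCGAA) was in 1 member window, that of UBE2F, against 16.4% of all windows, and no member window held the E2F words that were searched, against 3.31% of all windows. CCAAT was in 25.0% of member windows and in 34.6% of all windows. A match is only a match of letters.

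UBE2M, UBE2D3, UBE2A and UBE2L6 were, after UBE2H, the members with the highest mean RPKM over all libraries. UBE2M, which passes NEDD8 to cullins, was the most abundant member with Control siRNA and in 7th place with CREM siRNA. It was at 33.8, 37.0 and 36.4 RPKM with CREM siRNA, against 47.1, 47.3 and 46.1 RPKM with Control siRNA. The groups did not overlap (log2 fold change -0.38 with standard error 0.0485, limma adjusted p = 3.12e-05), but with the libraries scaled by GAPDH the call was lost (-0.19, adjusted p = 0.0524 from limma).

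UBE2D3, an E2 that works with a wide range of RING ligases, was at 46.5, 45.1 and 43.9 RPKM with CREM siRNA, against 40.6, 42.9 and 43.5 RPKM with Control siRNA. The lowest CREM siRNA library was barely above the highest Control siRNA library, and the gene did not pass (log2 fold change 0.092, adjusted p = 0.104 from limma). UBE2A, one of the human counterparts of yeast RAD6, was higher at 44.9, 44.9 and 42.8 RPKM with CREM siRNA, against 37.0, 37.3 and 38.1 RPKM with Control siRNA (log2 fold change 0.23, adjusted p = 6.70e-04 from limma). UBE2L6, the E2 of ISG15, was lower at 35.5, 37.8 and 37.6 RPKM with CREM siRNA, against 41.8, 42.8 and 43.5 RPKM with Control siRNA (log2 fold change -0.20, adjusted p = 0.00211 from limma), and under scaling by reference genes its value became 0.033. In these last 2 genes every library of a group stood on the same side of the other group.

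**Figure D3:**
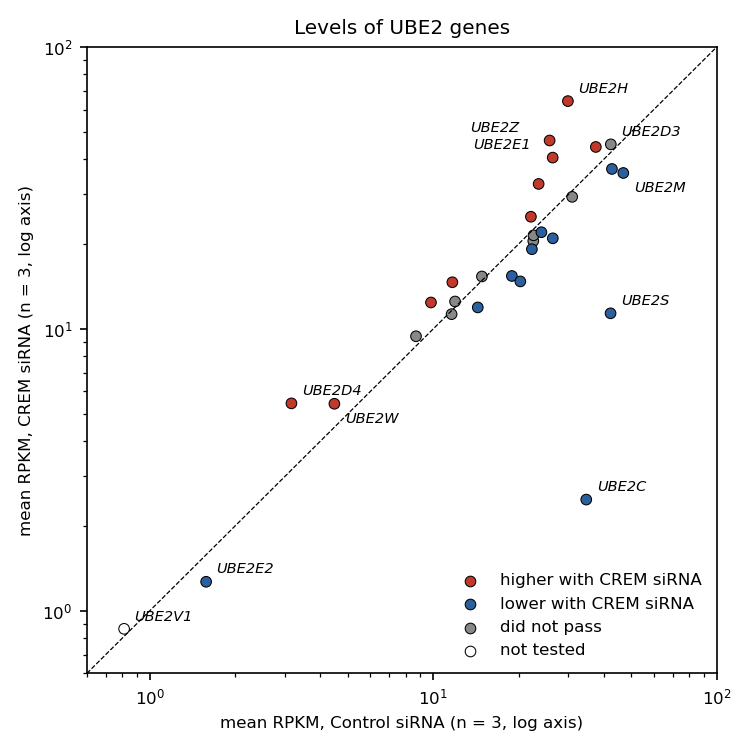
Mean RPKM of UBE2 genes with CREM siRNA (vertical log axis) and with Control siRNA (horizontal log axis), n = 3 libraries a group. The dashed line marks equal levels, and colours give the call. Most genes follow the line, UBE2C (2.48 with CREM siRNA and 34.7 with Control siRNA) and UBE2S (11.4 and 42.2) lie below it, and UBE2V1 is the lowest gene in both groups.

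Gains and losses within the family were also summed. The summed RPKM of the 31 genes was 688, 679 and 674 in CREM siRNA libraries, against 678, 698 and 706 in Control siRNA libraries. These sums overlap (two-sided exact permutation test, p = 0.3, where 0.1 is the smallest p that 3 libraries against 3 allow). Summed as CPM, which weights long genes more, the values were 2494, 2425 and 2409 with CREM siRNA and 2240, 2307 and 2308 with Control siRNA (exact permutation test, p = 0.1), so the direction of the total depends on the unit. The highest means were those of UBE2H, UBE2Z, UBE2D3 and UBE2A with CREM siRNA, and of UBE2M, UBE2L6, UBE2D3 and UBE2S with Control siRNA. UBE2D3 is the 1 gene in both.

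The remaining general-purpose E2s of the UBE2D group moved little. UBE2D1 was at 9.42 ± 0.374 RPKM with CREM siRNA and 8.70 ± 0.476 RPKM with Control siRNA (SD, n = 3 each; log2 fold change 0.10, adjusted p = 0.131 from limma), with no overlap between groups. UBE2D2 was at 29.4 ± 0.801 and 30.9 ± 1.09 RPKM in the same order, and the groups overlapped. Within libraries the ratio of UBE2D4 to UBE2D3 was 0.121 ± 0.00517 with CREM siRNA and 0.0748 ± 0.00806 with Control siRNA (SD, n = 3 each), so UBE2D4 remained a small part of the group even where it was higher.

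The UBE2E enzymes split by gene. UBE2E1 was higher, as described, while UBE2E3 was lower at 15.4 ± 0.590 RPKM with CREM siRNA and 18.9 ± 0.217 RPKM with Control siRNA (SD, n = 3 each; log2 fold change -0.28, adjusted p = 3.43e-04 from limma), a call that scaling by GAPDH (-0.097) or reference genes (-0.051) removed. The ratio of UBE2E1 to UBE2E3 was 2.60, 2.70 and 2.59 in CREM siRNA libraries, against 1.31, 1.40 and 1.47 in Control siRNA libraries. UBE2E1 thus exceeded UBE2E3 in all 6 libraries, and by more after the knockdown. UBE2E2 was rare, at 1.27 ± 0.0479 RPKM with CREM siRNA and 1.58 ± 0.111 RPKM with Control siRNA (SD, n = 3 each; log2 fold change -0.19, adjusted p = 0.0294 from limma), and this call was lost without CREM siRNA replicate 1 (adjusted p = 0.0805), CREM siRNA replicate 2 (0.0731) or Control siRNA replicate 2 (0.118) and under either scaling (-0.071 with GAPDH and -0.043 with reference genes). With count models the call held in edgeR (adjusted p = 0.0316) and was lost in DESeq2 (adjusted p = 0.112). The values of UBE2E2 rest on 88 to 142 reads per library.

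UBE2G1 and UBE2G2 moved in opposite directions. UBE2G1, which extends chains on targets of cullin ligases, was at 15.1, 15.3 and 13.8 RPKM with CREM siRNA, against 20.1, 20.2 and 20.6 RPKM with Control siRNA (log2 fold change -0.44, adjusted p = 2.09e-05 from limma). UBE2G2, an E2 of protein degradation at the endoplasmic reticulum, was at 12.2, 12.6 and 12.4 RPKM with CREM siRNA, against 9.03, 10.2 and 10.2 RPKM with Control siRNA (log2 fold change 0.31, adjusted p = 6.39e-04 from limma). Neither gene had overlapping groups. The ratio of UBE2G1 to UBE2G2 was 1.24, 1.21 and 1.11 with CREM siRNA, against 2.23, 1.97 and 2.02 with Control siRNA, a difference of -0.75 in log2 ratio.

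**Figure D4:**
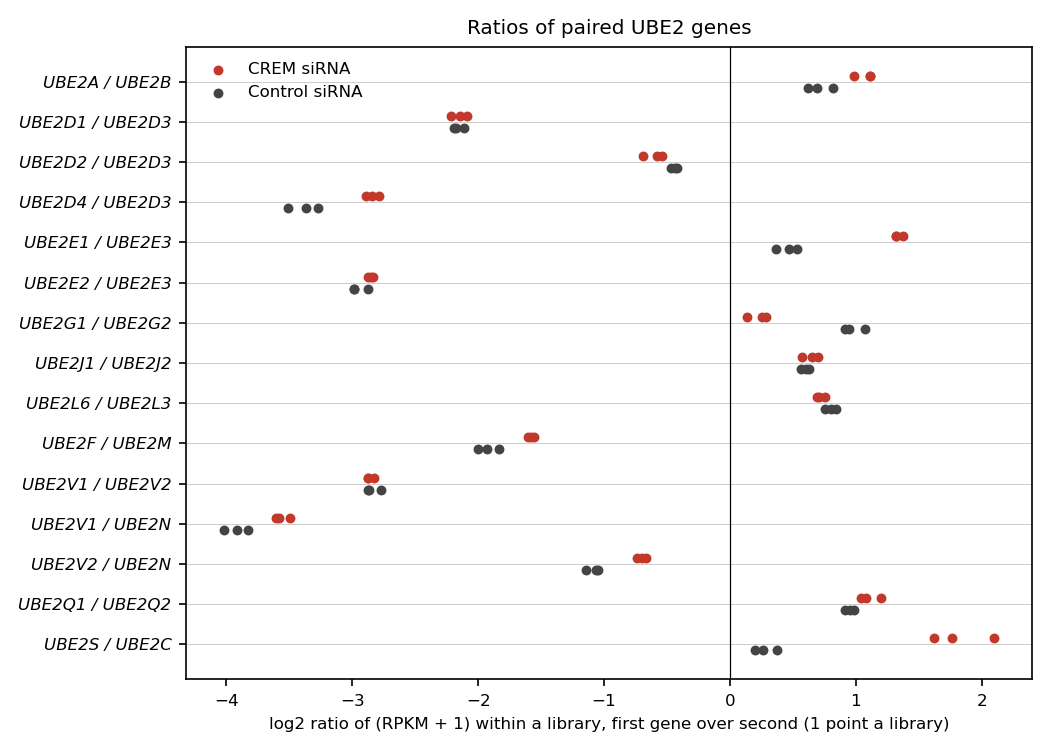
Log2 ratio of RPKM + 1 between paired UBE2 genes within each library (horizontal axis), for 15 pairs (rows), CREM siRNA above Control siRNA in each row. Points are libraries. Groups are apart in 11 pairs, most widely for UBE2S / UBE2C (difference 1.55), UBE2E1 / UBE2E3 (0.88) and UBE2G1 / UBE2G2 (-0.75).

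In all, 15 pairs of related or cooperating members were compared by the log2 ratio of RPKM + 1 within a library, a quantity that does not change much with the scaling of libraries. The groups did not overlap in 11 pairs, each with an exact permutation p = 0.1, the smallest possible, and p = 0.136 after Benjamini-Hochberg adjustment over the 15 pairs. With this test no pair could pass a threshold of 0.05 at 3 libraries against 3. The groups overlapped for UBE2D1 and UBE2D3, UBE2E2 and UBE2E3, UBE2J1 and UBE2J2, and UBE2V1 and UBE2V2.

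The RAD6 counterparts UBE2A and UBE2B act on chromatin with RAD18 on PCNA and with RNF20 and RNF40 on histone H2B. UBE2B was at 20.5 ± 0.493 RPKM with CREM siRNA and 22.5 ± 1.97 RPKM with Control siRNA (SD, n = 3 each), and it did not pass (log2 fold change -0.13, adjusted p = 0.0875 from limma), although it did without Control siRNA replicate 1 (adjusted p = 0.0123). The ratio of UBE2A to UBE2B was 2.16 ± 0.109 with CREM siRNA and 1.67 ± 0.126 with Control siRNA (SD, n = 3 each). UBE2A shares 18.1% of its exon bases with NKRF on the other strand, and NKRF was lower (log2 fold change -0.28) where UBE2A was higher. The 11 partners in damage tolerance and chromatin ubiquitination held 5 higher and 5 lower calls, beside 36.6% and 36.7% of all genes. The other 1 did not pass, and the median log2 fold change was 0.063. On the log2 scale the ligases RAD18 and RNF168 were lower at -1.06 and -1.03, as was the hydrolase USP1, which removes ubiquitin from PCNA, at -1.11, whereas RNF20, the USP1 partner WDR48 and SHPRH were higher at 0.57, 0.39 and 0.36.

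UBE2N forms a heterodimer with UBE2V1 or UBE2V2, which lack the catalytic cysteine, to build chains used in signalling. UBE2N was lower at 21.0 ± 0.697 RPKM with CREM siRNA and 26.4 ± 0.905 RPKM with Control siRNA (SD, n = 3 each; log2 fold change -0.32, adjusted p = 1.42e-04 from limma), but not with GAPDH scaling (-0.13, adjusted p = 0.211) or reference genes (-0.087, adjusted p = 0.155). It shares 39.5% of its exon bases with NUDT4 on the other strand, and NUDT4 was at 50.2 RPKM with CREM siRNA and 18.1 RPKM with Control siRNA. The sources used here do not say whether strand was used in counting, so reads of these 2 genes may not be fully told apart. UBE2V2 was at 12.5 ± 0.109 and 11.9 ± 0.389 RPKM in the same order and did not pass. UBE2V1 was the 1 member not tested, at 0.848, 0.855 and 0.887 RPKM with CREM siRNA, against 0.858, 0.835 and 0.743 RPKM with Control siRNA, with overlapping groups. It shares 42.9% of its exon bases with the read-through gene TMEM189-UBE2V1, and the annotation names 15 pseudogenes of it, so its low values are uncertain. Within libraries the ratio of UBE2V2 to UBE2N was 0.597 ± 0.0152 with CREM siRNA and 0.452 ± 0.0171 with Control siRNA (SD, n = 3 each).

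Of 11 tested NF-kappaB ligases and hydrolases, which use or cut such chains, there were 3 higher, 4 lower and 4 without a call. Over all tested genes 36.6% were higher and 36.7% lower. The hydrolase TNFAIP3 fell by 1.69 on the log2 scale, and BIRC2, a ligase at the tumour necrosis factor receptor, was higher at 0.84.

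UBE2M and UBE2F are the E2s of NEDD8, with UBE2M serving most cullins through RBX1 and UBE2F serving CUL5 through RNF7. UBE2F did not pass, at 11.3 ± 0.375 RPKM with CREM siRNA and 11.6 ± 0.606 RPKM with Control siRNA (SD, n = 3 each), and it shares 16.2% of its exon bases with the read-through gene UBE2F-SCLY on the same strand. The ratio of UBE2F to UBE2M was 0.316 ± 0.0054 with CREM siRNA and 0.248 ± 0.0156 with Control siRNA (SD, n = 3 each). NAE1, part of the E1 of NEDD8, fell by 0.55 on the log2 scale, and its partner UBA3 was at 0.063 and did not pass. The 17 cullins and neddylation genes held 4 higher and 5 lower calls, beside 36.6% and 36.7% of all genes, and their median was -0.12. CUL4A had by far the largest change of this list, with 19.5 RPKM with CREM siRNA and 75.1 RPKM with Control siRNA (log2 fold change -1.90, adjusted p = 4.73e-11 from limma), RBX1 and RNF7 were lower at -0.44 and -0.45, and CUL1 and COPS5 were higher at 0.38 and 0.37. UBE2R2, which extends chains on targets of CUL1 ligases, was higher at 25.0 ± 1.10 RPKM with CREM siRNA and 22.1 ± 1.11 RPKM with Control siRNA (SD, n = 3 each; log2 fold change 0.17, adjusted p = 0.0153 from limma). Its call was lost without CREM siRNA replicate 1 (adjusted p = 0.0594) or Control siRNA replicate 3 (0.0510). Its relative CDC34 was lower at -0.14.

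SAE1, part of the E1 of SUMO, had a log2 fold change of -0.75 and UBA2, the other part, of -0.12, both calls, and the modifier gene SUMO2 fell by 0.21, whereas SUMO3 was higher at 0.35. The SUMO ligases and proteases had 5 of 14 genes higher and 4 lower, beside 36.6% and 36.7% of all genes, and 5 not passing. SENP1, a protease that removes SUMO, fell by 0.86.

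For UBE2L6 the E1 is UBA7, which was higher at 0.25 on the log2 scale, whereas ISG15 itself fell by 0.30 and the protease USP18, which removes ISG15, by 0.39. In the list of ISG15 and interferon-response genes, 9 of 11 tested were higher and 2 lower, beside 36.6% and 36.7% of all genes. The median was 0.47, and 4 genes of the list were not tested. IFIT3 and IRF9 were higher at 1.61 and 0.83. UBE2L6 and ISG15 are both known as interferon-induced genes, and both were lower while most of this list was higher, but neither was called with the libraries scaled by GAPDH (ISG15 -0.11, adjusted p = 0.295, and UBE2L6 -0.014, adjusted p = 0.895, from limma) or by reference genes (-0.066 and 0.033). UBE2L3, the E2 of HECT and RBR ligases, was at 22.0 ± 0.619 RPKM with CREM siRNA and 24.1 ± 1.10 RPKM with Control siRNA (SD, n = 3 each). It was the most marginal call (log2 fold change -0.12, adjusted p = 0.0489 from limma), lost without any 1 of 5 libraries: CREM siRNA replicate 1 (adjusted p = 0.125), 2 (0.0513) or 3 (0.106), and Control siRNA replicate 2 (0.175) or 3 (0.110). The 16 tested HECT and RBR ligases held 6 higher and 5 lower calls, beside 36.6% and 36.7% of all genes. The RBR ligase RNF19B (1.88) and the HECT ligase WWP2 (1.27) were higher, and the HECT ligases NEDD4L (-1.16) and HUWE1 (-0.72) were lower.

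UBE2J1 and UBE2J2 are anchored in the membrane of the endoplasmic reticulum. Both were lower: UBE2J1 was at 19.2 ± 0.237 RPKM with CREM siRNA and 22.3 ± 0.701 RPKM with Control siRNA, and UBE2J2 at 11.9 ± 0.567 and 14.4 ± 0.134 RPKM in the same order (SD, n = 3 each; log2 fold changes -0.21 and -0.25, adjusted p = 0.00217 and 0.00123 from limma). Their ratio to each other overlapped between groups, and neither call held with GAPDH scaling (UBE2J1 -0.020 and UBE2J2 -0.069) or with reference genes (0.026 and -0.024). The list of degradation at the endoplasmic reticulum had 5 of 13 genes higher and 5 lower, beside 36.6% and 36.7% of all genes. The other 3 did not pass. In log2 terms HERPUD1 and RNF5 were lower at -0.68 and -0.62, and the ligase TRIM13 was higher at 0.53.

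Among the other members, UBE2Q1 was higher at 32.7 ± 0.641 RPKM with CREM siRNA and 23.5 ± 0.637 RPKM with Control siRNA (SD, n = 3 each; log2 fold change 0.46, adjusted p = 4.43e-06 from limma), just short of the 0.5 used above. UBE2Q2 was higher as well, at 14.6 ± 1.09 and 11.7 ± 0.529 RPKM in the same order (log2 fold change 0.30, adjusted p = 0.00125 from limma), and the annotation names 8 pseudogenes of it. UBE2W, which attaches ubiquitin to the N-terminus of proteins, was higher at 5.43 ± 0.332 RPKM with CREM siRNA and 4.48 ± 0.126 RPKM with Control siRNA (SD, n = 3 each; log2 fold change 0.23, adjusted p = 0.00645 from limma). UBE2O, a large enzyme that unites E2 and E3 functions, and UBE2K, which builds degradative chains by itself, did not pass, with log2 fold changes of 0.045 and -0.071 and overlapping groups.

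The list matched to UBE2H, the subunits and partners of the CTLH complex, had 8 of 11 genes higher, 2 lower and 1 not passing, beside 36.6% and 36.7% of all tested genes, with a median log2 fold change of 0.29. RMND5A, one of its RING subunits, was at 21.0 RPKM with CREM siRNA and 10.9 RPKM with Control siRNA (log2 fold change 0.88, adjusted p = 4.09e-07 from limma). YPEL5 and the substrate receptor GID4 were higher at 0.63 and 0.44. MAEA, the RING partner of RMND5A, was lower at -0.33 and RMND5B at -0.22. Under either scaling 0 genes of the list were called lower. Lower calls also fell over all 12407 tested genes, from 4558 to 2976 with GAPDH scaling and 3010 with reference genes.

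**Figure D5:**
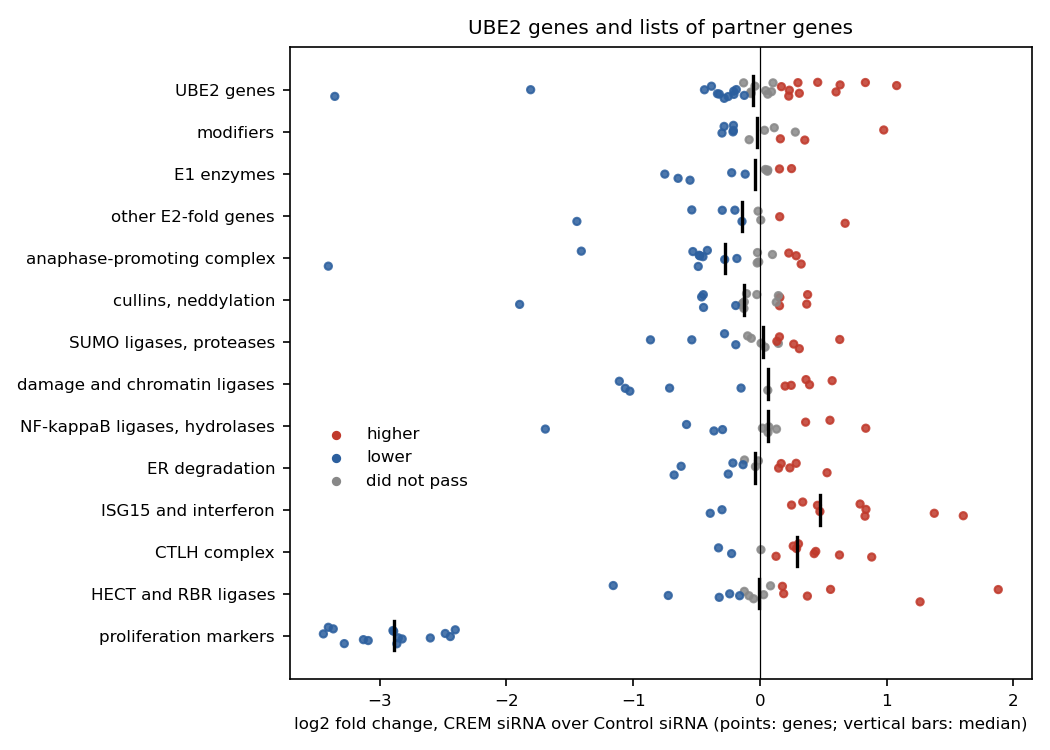
Log2 fold change, CREM siRNA over Control siRNA (horizontal axis), of the tested UBE2 genes and of 13 lists of partner genes (rows). Points are genes coloured by call, with vertical jitter, and black bars are medians. The 15 proliferation markers lie furthest to the left with a median of -2.89, and the medians of the CTLH complex (0.29) and of the ISG15 and interferon list (0.47) lie to the right.

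The E1 enzymes act upstream of the UBE2 proteins. Of 10 E1 genes 2 were higher, 5 lower and 3 uncalled, beside 36.6% higher and 36.7% lower of all genes. Scaled by GAPDH there were 3 in each direction, and scaled by reference genes 6 were higher and 3 lower. UBA1, the main E1 of ubiquitin, was at 113 RPKM with CREM siRNA and 132 RPKM with Control siRNA (log2 fold change -0.22, adjusted p = 0.00138 from limma). The 12 modifier genes held 3 higher and 5 lower calls as deposited and 6 higher and 0 lower calls under either scaling, so their balance rests on the scaling. Under these scalings more of all tested genes were also called higher and fewer lower, as given below. URM1, a modifier that also acts in tRNA thiolation, had the largest change at 0.98. Among 9 other genes with the E2 fold, UBE2QL1 fell by 1.44 on the log2 scale to 0.989 RPKM with CREM siRNA, against 4.41 RPKM with Control siRNA, and UFC1, the E2 of UFM1, was higher at 0.67.

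Scaling the libraries by GAPDH or by reference genes bears on the small changes. Scaling each library by its median ratio to the gene means kept all 30 member calls. The count models edgeR and DESeq2, each with its own scale, kept 30 and 29, with UBE2E2 lost in DESeq2. GAPDH was at 724 RPKM with CREM siRNA and 827 RPKM with Control siRNA (log2 fold change -0.19), and 11 of 19 reference genes were lower and 5 were higher. The log2 median over all genes shifted by 0.17 when GAPDH set the scale and by 0.21 when the other reference genes did. With GAPDH scaling 14 UBE2 genes were higher and 3 were lower, against 10 and 12 as deposited. With the other reference genes 17 were higher and 4 were lower. Over all 12407 tested genes, 5788 were higher and 2976 lower with GAPDH scaling, and 6684 and 3010 with the other reference genes. As deposited these were 4544 and 4558, so higher calls rose over all genes as well. The calls of UBE2C, UBE2S and UBE2G1 as lower and of UBE2A, UBE2D4, UBE2E1, UBE2G2, UBE2H, UBE2Q1, UBE2Q2, UBE2W and UBE2Z as higher held under every alternative in which the gene was tested, which for UBE2D4 and UBE2W leaves out the filter at a mean of 5 RPKM. Over those alternatives, which include count models with their own scale, the log2 fold change of UBE2C ran from -3.82 to -3.15 and that of UBE2H from 1.03 to 1.32.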

How the data were processed

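RNA of CHL-1 cells was sequenced 48 h after transfection with 50 nM CREM siRNA or Control siRNA, in 3 libraries a group (Illumina Stranded mRNA Prep per the labels). The authors deposited CPM values, and RPKM values that equal the CPM divided by 1 length per gene. The submitters' processing notes name R 3.6.1 and hg38. Aligner, counting program, annotation and strand use: not given in the sources used here. Of the deposited CPM, 100% of values were whole reads within 0.001, which allowed reads to be recovered.

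Genes averaging 1 RPKM or more (12407) were fitted with limma 3.58.1 (trended, robust variance; R 4.3.3) as log2(RPKM + 1), and p-values were Benjamini-Hochberg adjusted over them. The fold changes understate those of low genes. Single values were compared by two-sided exact permutation tests. edgeR 4.0.16 and DESeq2 1.42.0 were run on the recovered reads as alternatives, with other pseudocounts (0.1, 0.5), filters, scalings, the CPM table, an unlogged model, a replicate block and each library left out. The scripts were tested on simulated data. Coordinates and exon overlaps are from GENCODE 29, matched by Entrez ID, and promoters and their starts from RefSeq (GRCh38.p14).

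Members are named with library values for those called at an absolute log2 fold change of at least 0.5 and the 5 with the highest mean RPKM. CREM, GAPDH, MKI67, modifier, E1 and other E2 genes, and up to 3 genes a direction of each other list are named too. Library values of UBE2G1, UBE2G2 and UBE2V1, and genes that overlap or copy a member, were added after their values were seen. In the lists a gene named outside those 3 is given for its role. Besides the gene set aside, 1 member and a few partner genes are not reported here by name, and counts, sums and medians include them. The members and lists were chosen with earlier results of these data known.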

Additional observations from a re-analysis of the deposited data

How the results depend on the processing

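Of 30 tested UBE2 genes, 12 kept their direction and side of the threshold wherever they were tested (UBE2D4 and UBE2W, of these, were not tested with a filter at a mean of 5 RPKM), and 23 never changed sign. The count of lower members was 3 with GAPDH scaling and, with reference genes, 4 lower and 17 higher. Over all 12407 tested genes, 2976 were lower with GAPDH scaling, and 3010 lower and 6684 higher with reference genes. Signs turned with GAPDH scaling for UBE2B (0.058), UBE2D2 (0.12), UBE2F (0.14), UBE2K (0.12) and UBE2L3 (0.064), and with reference genes for UBE2B (0.10), UBE2D2 (0.17), UBE2F (0.19), UBE2J1 (0.026), UBE2K (0.16), UBE2L3 (0.11) and UBE2L6 (0.033). These scalings moved log2 fold changes upward, and by less for genes at low levels. GAPDH scaling took UBE2A from 0.23 to 0.42 and UBE2E2 from -0.19 to -0.071. The summed level was 0.096 higher (log2) as CPM, against -0.029 as RPKM. Leaving out each library gave -0.018 to 0.046 for the log2 ratio of UBE2D1 to UBE2D3 and -0.040 to 0.011 for UBE2V1 to UBE2V2, which was 0.014 with a pseudocount of 0.1. Over all alternatives adjusted p ran from 0.0172 to 0.557 for UBE2L3, 0.0191 to 0.582 for UBE2E2 and 0.0123 to 0.598 for UBE2B.

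Same-numbered libraries deviated together with correlations of 0.274, -0.035 and 0.136, so the numbers were not taken to pair samples, although reads of MLANA and TYR were found only in replicate 3 of each group. With a replicate block 10 members were higher and 13 lower, the added one being UBE2B (-0.13, adjusted p = 0.0252 from limma). Over all tested genes the block gave 4853 higher and 4812 lower calls, against 4544 and 4558 without it. Leaving out a library gave 9 to 10 members higher and 10 to 13 lower, beside 4233 to 4474 higher and 4230 to 4477 lower of all genes. Depth limits UBE2V1 and UBE2E2, with 64 to 142 reads a library.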

Other observations

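Several copies of members had rows of their own. UBE2MP1, a pseudogene of UBE2M, was at 16.1 ± 0.785 RPKM with CREM siRNA and 21.4 ± 1.08 RPKM with Control siRNA (SD, n = 3 each; log2 fold change -0.38, adjusted p = 9.71e-05 from limma), the same log2 fold change as UBE2M itself. UBE2NL, a copy of UBE2N, was at 5.59 ± 0.483 and 7.64 ± 1.10 RPKM in the same order (log2 fold change -0.38, adjusted p = 0.00282 from limma), beside -0.32 for UBE2N. UBE2E4P was at 21.6 ± 0.219 RPKM with CREM siRNA and 24.3 ± 1.46 RPKM with Control siRNA (log2 fold change -0.16, adjusted p = 0.0177 from limma). Its level was above that of UBE2E3 in RPKM but below it in CPM. The sources used here do not say how reads that match a gene and its copy were divided.

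TMEM189, the neighbour that forms a read-through gene with UBE2V1, was at 33.3 ± 0.267 RPKM with CREM siRNA and 19.3 ± 0.542 RPKM with Control siRNA (SD, n = 3 each; log2 fold change 0.76, adjusted p = 5.92e-08 from limma), while UBE2V1 stayed under 1 RPKM in all 6 libraries.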
